A study of Homo sapiens with 4 samples.

Results

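The genes described here are the long intergenic non-coding RNA genes with a LINC number that had at least 20 reads in every library of a glucose experiment in 2 liver cancer cell lines. They were chosen from the deposited table of read counts by their name (LINC followed by digits) and by that minimum of 20 reads. Of 2128 LINC genes in the table, 160 passed. Another 920 had 0 reads in all 4 libraries, 724 had reads but fewer than 20 in each library, and 324 reached 20 reads in some libraries but not in all. Because the counts chose the genes, a LINC gene that was nearly silent in 1 line or at 1 glucose concentration is not among the 160.

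Huh7 and PLC, both wild type, are hepatocellular carcinoma lines. Each was grown for 48 h in glucose-free DMEM with 10% FBS to which glucose was added to 5 mM (low glucose) or 25 mM (high glucose). RNA was depleted of rRNA and sequenced from directional libraries. There was 1 library for each line and glucose concentration, and nothing in the labels marks a second culture, so no value here has a spread between replicates. The table held 21376239 and 30085303 reads for Huh7 cells in low and high glucose, and 30279716 and 16049686 for PLC cells. ALB, AFP, APOB, SERPINA1, HNF4A and GPC3, genes of the liver and of liver tumours, had reads in all 4 libraries. Their levels differed between the lines: ALB had 147932 and 210431 reads in Huh7 and 5449 and 3980 in PLC cells. HNF4A had 4550 and 6867 reads in Huh7 and 7785 and 4535 in PLC cells. Of 2 further liver genes, APOA1 had 1035 and 2209 reads in Huh7 cells but 26 and 52 in PLC cells. TTR had 1839 and 2599 reads in Huh7 cells but 4 and 0 in PLC cells. Of the markers of other cells, HBB was at 0 in all libraries, and PTPRC, VWF and COL1A1 had between 0 and 20 reads. PECAM1 reached 392 and 593 reads in Huh7 and 27 and 36 in PLC cells, and COL3A1 had 37, 62, 137 and 141 reads in the 4 libraries. What these 2 genes contribute to differences between the lines was not tested.

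Long non-coding RNAs are transcripts without a long open reading frame that are spliced and often polyadenylated like messenger RNAs. They can act near their own gene, by being transcribed or by holding proteins at the chromatin, or away from it, by binding proteins, messenger RNAs or microRNAs, and many are made in few tissues and in small amounts. A LINC number is given to such a gene when it lies between protein-coding genes and no better name is known, and a gene whose position or function becomes clear is later renamed.

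In the current annotation (GENCODE release 44, GRCh38), 157 of the 160 genes were classed as lncRNA and 3 as pseudogenes. In 10 cases the number has since been replaced by another symbol, among them LINC01578, now CHASERR, a regulator of its neighbour CHD2, LINC02163, now NIHCOLE, an RNA of DNA end joining, and LINC00271, now AHI1-DT. The genes lay on 23 chromosomes, with 23 genes on chromosome 1. Their median exon length was 4101 bases (range 431 to 33198), and 21 were a single exon. Of the 160 genes, 130 overlapped no protein-coding gene, 12 overlapped the span of one without sharing exon bases, and 18 shared exon bases with one. The 130 genes without overlap were a median of 39800 bases from the nearest protein-coding gene, and 21 were more than 500000 bases away.

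The 160 genes together held 0.183%, 0.193%, 0.208% and 0.248% of all reads in Huh7 cells in low and high glucose and PLC cells in low and high glucose. That was 64.2%, 64%, 77.8% and 80.0% of the reads on all LINC genes. Their levels are given in FPKM, the reads of a gene divided by its exon length and by the reads of the library, on the usual FPKM scale. The median of the mean FPKM over the 4 libraries was 1.63 (range 0.153 to 53.3), beside 5.76 for the 13752 genes of any class with at least 20 reads in each library. Only 7 LINC genes had a mean above 10 FPKM, and 52 were below 1 FPKM. In reads, the median of the means was 146 for the LINC genes and 678 for all 13752 genes, so that counting error is larger for the LINC genes. In bulk RNA, fewer cells with a transcript and less of it per cell cannot be told apart. At the limit of the rule, LINC00562, LINC00654 and LINC01389 were kept with a smallest count of 20. LINC01551 and LINC02853, both with a smallest count of 19, and LINC01277, with 18, were left out.

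The promoters of a few genes are printed because their genes carry the patterns described afterwards. Each window runs from 250 bases before to 50 bases after an annotated transcript start (RefSeq, GRCh38.p14), 5′ to 3′ on the strand of the gene. Capitals mark a match, on either strand, to one of the motifs searched: the E-box CACGTG, the CCAAT box, the TATA box TATAAA, the YY1 core AANATGGC and the amino acid response core TGATGNAAN. LINC00308 and LINC01687 lie head to head on opposite strands, with 98 bases between them by the exon coordinates deposited with the counts. The first window (chr21:22098367-22098666, plus strand) covers the RefSeq starts of both. The others are LINC01224 (chr19:23416025-23416324, minus strand), LINC00472 (chr6:71420696-71420995, minus strand) and 1 of 3 annotated starts of LINC02609 (chr1:90836112-90836411, minus strand).
LINC00308: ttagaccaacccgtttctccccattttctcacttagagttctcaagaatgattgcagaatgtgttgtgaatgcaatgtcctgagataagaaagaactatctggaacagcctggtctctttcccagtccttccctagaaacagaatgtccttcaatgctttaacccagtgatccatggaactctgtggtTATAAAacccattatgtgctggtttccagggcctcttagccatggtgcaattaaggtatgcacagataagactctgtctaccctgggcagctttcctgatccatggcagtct
LINC01224: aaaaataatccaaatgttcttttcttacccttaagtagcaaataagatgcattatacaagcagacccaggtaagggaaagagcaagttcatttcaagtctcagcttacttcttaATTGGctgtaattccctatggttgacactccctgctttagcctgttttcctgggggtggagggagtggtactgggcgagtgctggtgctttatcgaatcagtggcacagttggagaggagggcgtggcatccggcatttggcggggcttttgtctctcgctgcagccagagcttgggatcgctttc
LINC00472: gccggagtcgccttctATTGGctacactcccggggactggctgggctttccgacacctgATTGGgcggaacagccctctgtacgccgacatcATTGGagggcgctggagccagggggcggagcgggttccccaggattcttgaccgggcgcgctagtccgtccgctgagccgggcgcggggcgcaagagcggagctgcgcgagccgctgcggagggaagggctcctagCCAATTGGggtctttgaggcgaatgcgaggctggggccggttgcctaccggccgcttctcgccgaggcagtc
LINC02609: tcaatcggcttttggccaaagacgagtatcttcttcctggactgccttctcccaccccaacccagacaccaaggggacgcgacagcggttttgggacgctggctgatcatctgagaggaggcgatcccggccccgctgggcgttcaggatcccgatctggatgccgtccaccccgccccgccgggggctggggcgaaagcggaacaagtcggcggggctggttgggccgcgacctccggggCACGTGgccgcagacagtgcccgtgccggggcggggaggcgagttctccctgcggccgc
LINC00308 holds a TATA match, LINC01224 and LINC00472 hold CCAAT matches, and this start of LINC02609 holds an E-box. RefSeq promoters were matched for 105 of the 160 genes, with 120 starts. The E-box stood in 8.33% of these windows and in 7.23% of all 34943 promoters, the CCAAT box in 41.7% and 34.6%, and the TATA box in 17.5% and 11.6%. The YY1 core stood in 5.83% and 6.57%, and the amino acid response core in 5.00% and 3.62%. A match is a match of letters only. No promoter was matched for LINC02432, LINC02532, LINC01036, LINC02027 and LINC02649, which are named below.

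The most abundant LINC gene was LINC01419, with 36.0 and 58.5 FPKM in Huh7 and 46.4 and 72.5 in PLC cells in low and high glucose. It alone held 3.0%, 4.60%, 3.39% and 4.45% of the reads of the 160 genes. LINC00641 was next, with 22.8 and 20.4 FPKM in Huh7 and 7.65 and 7.78 in PLC cells. It was higher in Huh7 cells and nearly level between glucose concentrations in both lines. LINC02476 had 23.4 and 17.8 FPKM in Huh7 and 5.69 and 3.65 in PLC cells, higher in Huh7 cells and lower in high glucose in both lines. LINC02484 had 14.9, 14.2, 5.80 and 7.29 FPKM in the same order of libraries. LINC01578 had 9.32, 9.42, 11.7 and 15.0 FPKM, and its neighbour CHD2, a chromatin remodeller whose start lies 488 bases away, had high-to-low ratios of 0.828 and 0.686 in Huh7 and PLC cells against 1.01 and 1.28 for LINC01578. LINC00564, a single exon on chromosome 13, had 10.0, 11, 6.94 and 27.8 FPKM, of which the PLC library in high glucose stood above the other 3.

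**Figure D1:**
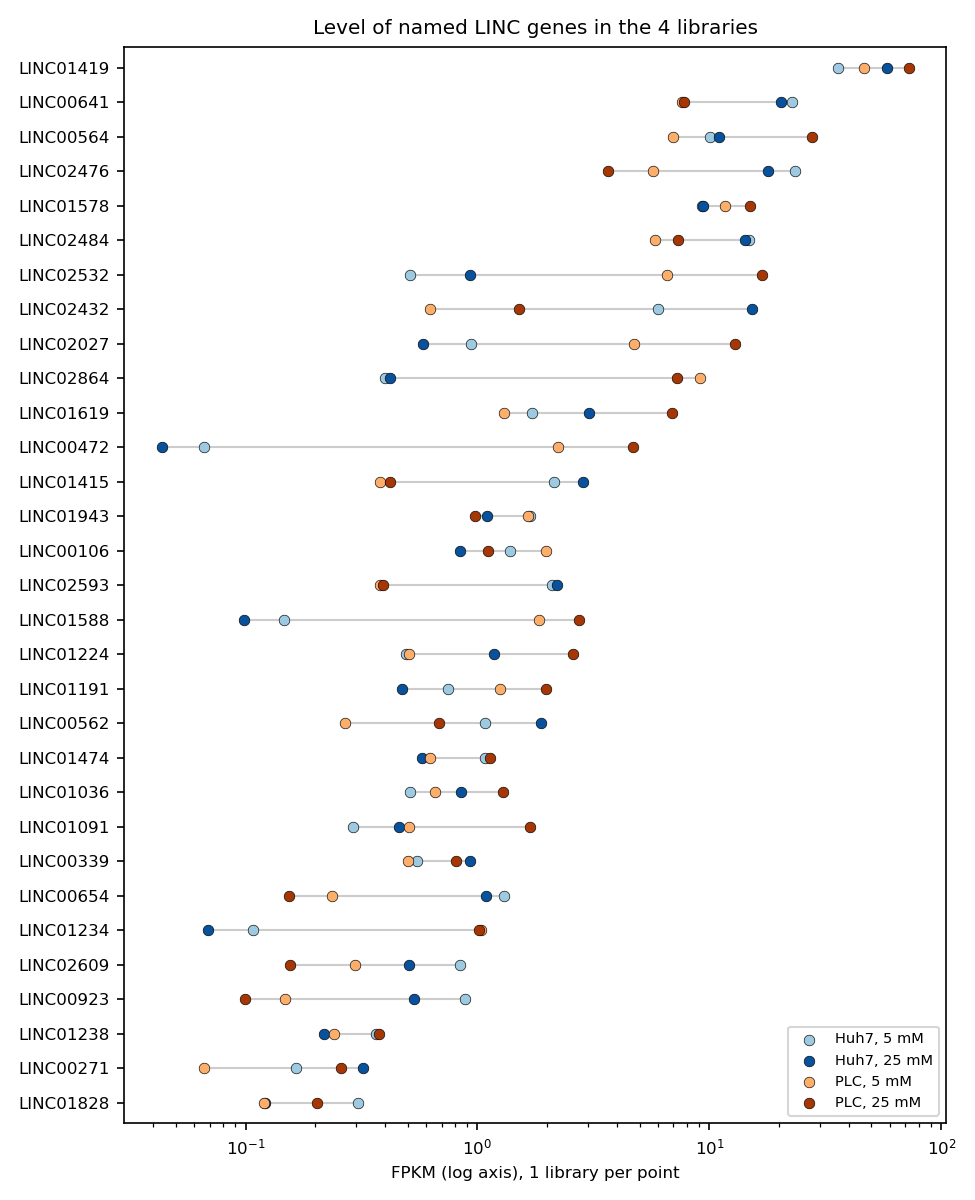
FPKM (log axis) of the LINC genes named for their level, for the difference between the lines or for their glucose ratio in both lines, 1 row per gene and 1 point per library. LINC01419 lies to the right of all others, and LINC00472 has the widest range, from 0.0435 FPKM in Huh7 cells to 4.67 in PLC cells.

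To compare the glucose concentrations, the ratio of FPKM in high glucose to that in low glucose was taken within each line, and a ratio above 1.5 or below 0.667 was counted. In Huh7 cells, 16 LINC genes were higher in high glucose and 22 lower (10.0% and 13.8%). Over the 13752 genes these shares were 6% and 6.17%. In PLC cells, 52 were higher and 19 lower (32.5% and 11.9%), against 20.2% and 10.2% of the 13752 genes. Exact binomial 95% intervals, which cover counting error only, excluded 1 for 33 of the 38 genes past 1.5-fold in Huh7 cells (20.6% of the LINC genes, 11.5% of all 13752) and for 66 of the 71 in PLC cells (41.2% and 29.3%). Counted by the interval alone, the order turned: it excluded 1 for 70 LINC genes in Huh7 cells (43.8%, against 54.9%) and for 95 in PLC cells (59.4%, against 69%). LncRNAs without a LINC number, 1594 genes with at least 20 reads in each library, were past 1.5-fold in 19.7% and 38.3% of cases, nearer to the LINC genes (23.8% and 44.4%, against 12.2% and 30.4% of all 13752) than the 11092 protein-coding genes were (10.3% and 28.8%). The part of the lower read number, and of the minimum of 20 reads, in these shares was not tested.

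The middle of the LINC genes differed between the lines. The median log2 ratio was -0.0014 in Huh7 cells (range -1.34 to 1.34), with 80 genes above and 80 below a ratio of 1. In PLC cells it was 0.25 (range -2.29 to 2.90), with 104 above and 56 below. The medians of all 13752 genes were 0.035 and 0.097, and those of the other lncRNAs -0.0023 and 0.24. TMM scaling shifts every log2 ratio by -0.039 in Huh7 and -0.12 in PLC cells. With it the PLC median of the LINC genes was 0.13, and 43 LINC genes were higher and 25 lower. DESeq2 size factors gave 43 and 26. The same shift applies to the medians of all genes above, which are not scaled in this way. Shares of all 13752 genes under these scalings were not calculated. The minimum of 20 reads also bears on the PLC median, because the PLC library in high glucose was smaller. It was reached by 314 LINC genes in PLC cells in low glucose and by 252 in high glucose. A gene near the minimum was thus kept more readily where its PLC ratio was high. With at least 50 reads in each library the PLC median was 0.188. With a mean of at least 20 reads and 0.1 FPKM added it was 0.082. The part of the minimum in the PLC median was not tested.

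The lines shared part of these ratios. The ratio was on the same side of 1 in both lines for 94 of 160 LINC genes (58.8%), and for 59.2% of all 13752 genes. Both intervals excluded 1 on the same side for 30 LINC genes (18.8%, against 28.5%), 21 of them above 1 and 9 below, and on opposite sides for 11 (6.88%, against 12.8%). Past 1.5-fold in both lines, 10 LINC genes were higher in high glucose (6.25%, against 3.17%), 3 were lower (1.88%, against 1.96%), 13 in all (8.12%, against 5.13%), and 6 went in opposite directions (3.75%, against 1.24%). Both intervals also excluded 1 for 12 of the 13 (7.5%, against 4.84%) but for only 2 of the 6 opposite ones (1.25%, against 1.03%). With TMM scaling the counts were 8 higher and 8 lower, and with DESeq2 size factors 8 and 7. Higher genes thus outnumbered lower ones past 1.5-fold in both lines with library totals, but not or hardly with these scalings. Shares of all genes under these scalings were not calculated. As a description over the 160 genes, which share their 4 libraries, Pearson's r between the Huh7 and PLC log2 ratios was 0.310 and Spearman's rho 0.296.

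**Figure D2:**
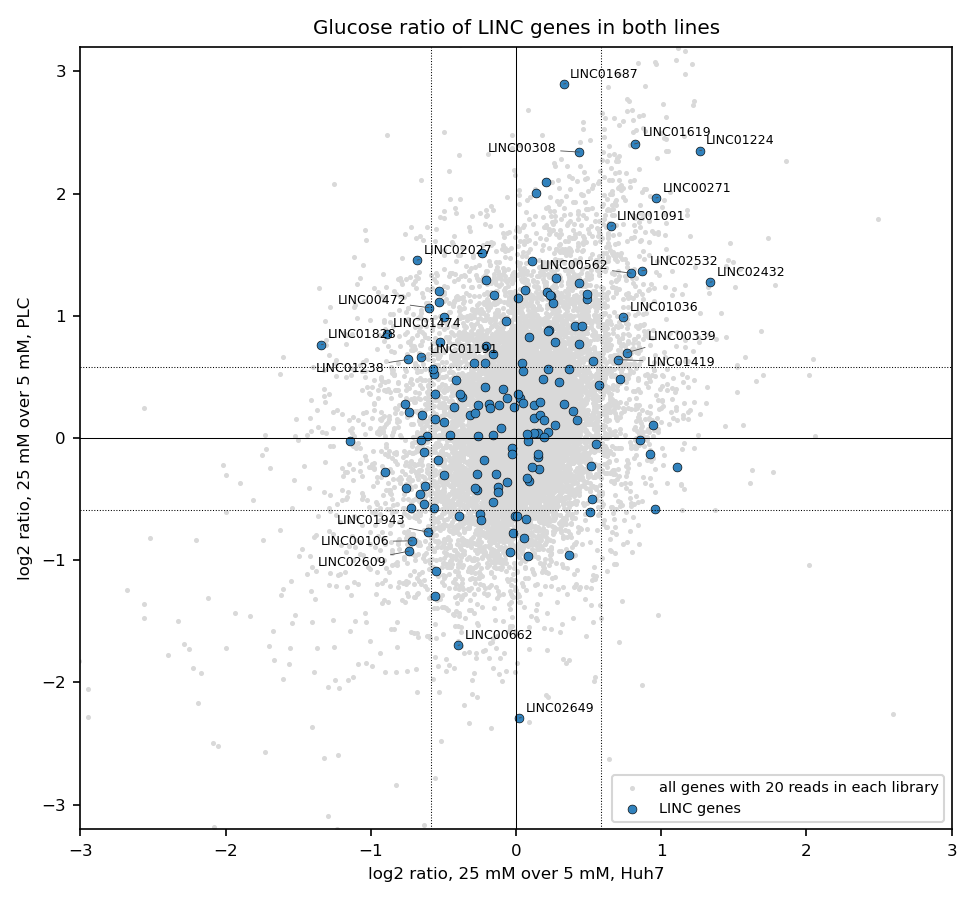
Log2 ratio of high (25 mM) to low (5 mM) glucose in Huh7 cells (x) and PLC cells (y), with 1 blue point per LINC gene over all genes with at least 20 reads in each library in grey (some grey points lie beyond the axes). Dotted lines mark 1.5-fold; 10 LINC genes lie past them at the upper right, 3 at the lower left and 6 at the upper left, and none at the lower right.

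Of the 10 LINC genes higher in both lines, LINC02432 (chromosome 4, 141302910 to 141357096, between protein-coding genes) had the largest smaller ratio. It had 940 and 3341 reads in Huh7 and 138 and 177 in PLC cells in low and high glucose, which is 6.02, 15.2, 0.624 and 1.51 FPKM. Its ratios were 2.53 (95% interval 2.35 to 2.72) and 2.42 (1.93 to 3.05), so both lines changed by nearly the same factor from levels about 10-fold apart. The nearest coding gene, ZNF330, 68213 bases away, had ratios of 0.727 and 0.481.

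LINC01224, on chromosome 19 next to ZNF91, a zinc finger repressor of retrotransposons, had 42, 142, 61 and 165 reads in Huh7 low and high and PLC low and high glucose. It was higher in high glucose in both lines, with ratios of 2.40 (1.69 to 3.48) and 5.10 (3.78 to 6.96). ZNF91, 3762 bases away, had ratios of 1.13 and 1.07.

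LINC01619 had 178, 441, 190 and 534 reads and ratios of 1.76 (1.48 to 2.11) and 5.30 (4.49 to 6.29). The lines were close in low glucose, at 1.72 and 1.30 FPKM, and apart in high glucose, at 3.03 and 6.88 FPKM. It shares 503 exon bases, 10.4% of its length, on the same strand with BTG1, an antiproliferative gene, and reads in the shared part cannot be told apart. BTG1 had ratios of 1.11 and 1.33.

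LINC00271 starts 343 bases from AHI1, a gene of the primary cilium, on the opposite strand. It shares 183 exon bases, 1.26% of its length, with AHI1, and reads there cannot be told apart unless counted by strand. With 51, 140, 29 and 60 reads LINC00271 had ratios of 1.95 (1.41 to 2.74) and 3.90 (2.47 to 6.31). AHI1 had 1133, 1437, 2265 and 1248 reads and ratios of 0.901 and 1.04. LINC02532 had 152 and 390 reads in Huh7 and 2767 and 3785 in PLC cells, with ratios of 1.82 (1.51 to 2.21) and 2.58 (2.46 to 2.71). LINC01091 had 89, 197, 219 and 386 reads and ratios of 1.57 (1.22 to 2.04) and 3.33 (2.81 to 3.94). The nearest coding gene to LINC01091 was SPRY1, an inhibitor of receptor tyrosine kinase signalling, which was also past 1.5-fold in both lines (1.55 and 1.80) from 135266 bases away.

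The other 4 were smaller or rested on few reads. LINC00562, a single exon within the span of SUCLA2, a gene of the citrate cycle, had 57, 139, 20 and 27 reads and ratios of 1.73 (1.26 to 2.40) and 2.55 (1.38 to 4.79). SUCLA2 lies on the same strand and had 1136, 1555, 1852 and 1061 reads and ratios of 0.973 and 1.08. The part of unspliced SUCLA2 RNA in the reads of LINC00562 was not tested. LINC01036 had 132, 310, 239 and 251 reads and ratios of 1.67 (1.36 to 2.06) and 1.98 (1.65 to 2.38). LINC00339 had 44, 105, 57 and 49 reads and ratios of 1.70 (1.18 to 2.47) and 1.62 (1.08 to 2.42). It shares exon bases on the same strand with CDC42, a small GTPase, which had ratios of 1.09 and 1.19. LINC01419 had 1171, 2676, 2138 and 1769 reads and ratios of 1.62 (1.52 to 1.74) and 1.56 (1.46 to 1.66). LINC00339 and LINC01419 are the 2 genes that are no longer past 1.5-fold in both lines with TMM scaling or DESeq2 size factors.

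The 3 genes lower in both lines had few reads in PLC cells in high glucose. LINC02609, whose E-box promoter is printed above, had 258, 218, 129 and 36 reads, or 0.841, 0.505, 0.297 and 0.156 FPKM. Its ratios of 0.60 (0.499 to 0.722) and 0.526 (0.353 to 0.767) were the lowest of the pairs, and both intervals lay below 1. LINC00106 had 35, 30, 71 and 21 reads and ratios of 0.609 (0.361 to 1.02) and 0.558 (0.326 to 0.919). LINC01943 had 53, 49, 74 and 23 reads and ratios of 0.657 (0.436 to 0.987) and 0.586 (0.350 to 0.947). For these last 2 genes the sequence is not their own: 100% and 81.7% of the 31-base windows of their exons occur elsewhere in the genome, LINC00106 lying in the region that X and Y share, so their reads are uncertain. Over the 160 genes the median share of such repeated windows was 7.65%, and 34 genes were above 20%.

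**Figure D3:**
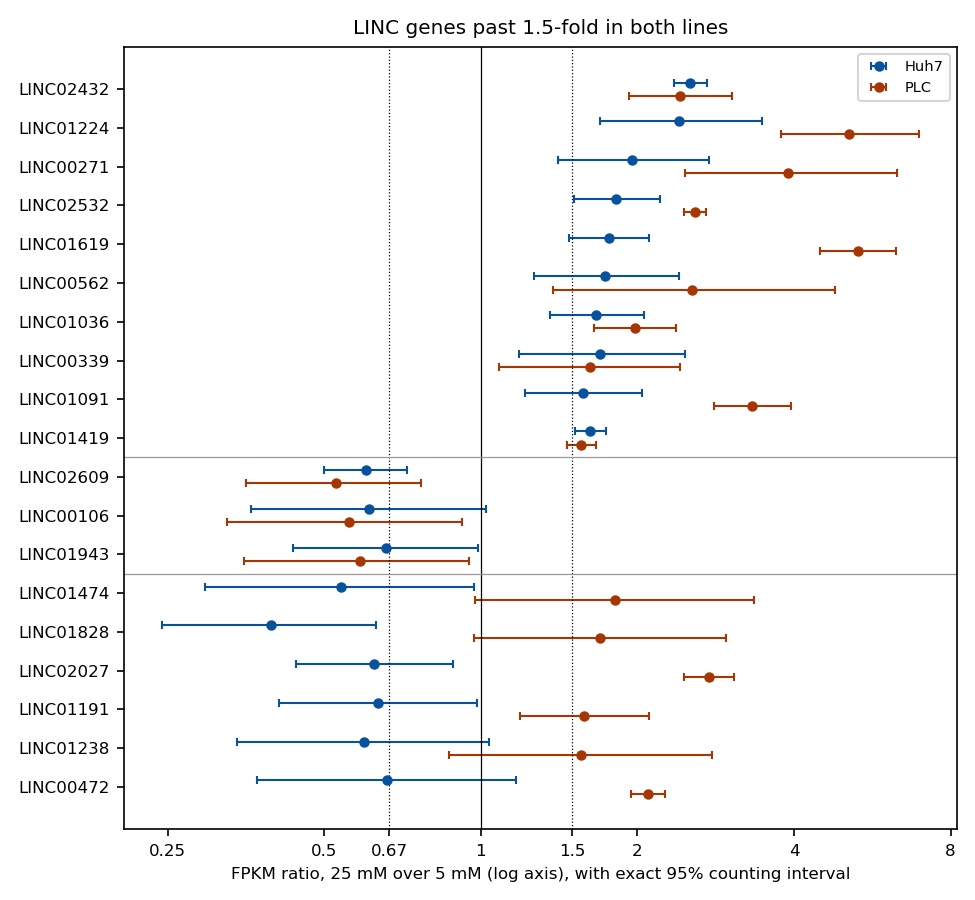
High-to-low glucose FPKM ratio (log axis) of the 19 LINC genes past 1.5-fold in both lines, with exact 95% intervals that cover counting error only; Huh7 blue, PLC brown. The upper 10 genes are higher in both lines, the next 3 lower in both and the last 6 lower in Huh7 and higher in PLC cells; of these 6, LINC02027 and LINC01191 have both intervals away from 1.

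With scaling by library totals, all 6 genes past 1.5-fold in opposite directions were lower in high glucose in Huh7 and higher in PLC cells. With TMM scaling there were 5, of which 4 went this way and 1 the reverse. DESeq2 size factors gave the same counts. The PLC ratios of LINC01191 and LINC01238 were then under 1.5. LINC02027 had 74 and 65 reads in Huh7 and 530 and 771 in PLC cells, with ratios of 0.624 (0.440 to 0.883) and 2.74 (2.45 to 3.07). Its Huh7-to-PLC ratio was thus 0.198 (0.153 to 0.253) in low and 0.0450 (0.0344 to 0.0580) in high glucose. GBE1, the glycogen branching enzyme and its nearest coding gene at 384521 bases, had ratios of 0.956 and 1.13. LINC01191, with 47, 42, 111 and 93 reads, had ratios of 0.635 (0.409 to 0.984) and 1.58 (1.19 to 2.10). Its PLC ratio was 1.45 with TMM scaling and 1.44 with DESeq2 size factors. For the other 4 an interval included 1 in at least 1 line. LINC00472 had ratios of 0.660 (0.372 to 1.17) and 2.09 (1.94 to 2.26), LINC01828 0.395 (0.244 to 0.628) and 1.70 (0.971 to 2.96), LINC01474 0.539 (0.295 to 0.971) and 1.81 (0.975 to 3.34), and LINC01238 0.596 (0.340 to 1.04) and 1.56 (0.870 to 2.78). With 1 library per condition the difference between the lines could not be tested for any of them.

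The largest glucose ratios of single LINC genes were found in PLC cells, and the genes in this paragraph were chosen after their values were seen. LINC01687 had 103 and 182 reads in Huh7 and 116 and 458 in PLC cells, with ratios of 1.26 (0.981 to 1.61) and 7.45 (6.06 to 9.21). LINC00308, its head-to-head neighbour, whose promoter is printed above, had 52, 99, 38 and 102 reads and ratios of 1.35 (0.958 to 1.93) and 5.06 (3.46 to 7.56). Both genes of this pair were thus higher in PLC cells in high glucose than in the other 3 libraries, at 7.75 and 7.70 FPKM. LINC00564 (ratio 4.01, 3.42 to 4.70) and LINC00337 (4.28, 2.66 to 7.08) were likewise higher in PLC cells, with ratios of 1.10 and 1.15 in Huh7 cells. LINC00337 shares 89 exon bases, 3.77% of its length, on the opposite strand with ICMT, which had ratios of 1.37 and 1.46 in Huh7 and PLC cells.

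In the other direction LINC02649 stood out, with 49 and 70 reads in Huh7 and 1099 and 119 in PLC cells. Its ratios were 1.02 (0.695 to 1.49) and 0.204 (0.168 to 0.247), the lowest of the 160 genes in PLC cells. LINC02649 lies 16525 bases from PFKFB3, which makes the activator of phosphofructokinase in glycolysis. PFKFB3 itself had 1402 and 2760 reads in Huh7 and 15512 and 2674 in PLC cells, with ratios of 1.40 and 0.325. LINC00662 had 584, 623, 3767 and 616 reads and ratios of 0.758 (0.676 to 0.85) and 0.309 (0.283 to 0.336). LINC00598 had 70, 67, 222 and 48 reads and ratios of 0.680 (0.479 to 0.965) and 0.408 (0.292 to 0.559). It lies 19860 bases from FOXO1, a transcription factor that insulin signalling holds in check, which had 696, 559, 1223 and 345 reads and ratios of 0.571 and 0.532. LINC02649, LINC00662 and LINC00598 were each highest in PLC cells in low glucose. Some genes were past 1.5-fold in Huh7 cells alone, such as LINC01816 with 25, 76, 60 and 27 reads and LINC00886 with 160, 102, 46 and 24 reads. Their Huh7 ratios were 2.16 (1.36 to 3.54) and 0.453 (0.350 to 0.584), and their PLC ratios were 0.849 and 0.984.

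A glucose difference shared by both lines was tested by edgeR (quasi-likelihood, counts of 23217 genes, line as a term). The model leaves 1 residual degree of freedom, and the lines are not replicate cultures. None of the 160 LINC genes passed an adjusted p of 0.05 in edgeR, where 0.379% of all genes did. At an unadjusted p under 0.05 by edgeR there were 18 (12 higher and 6 lower), beside 8.51% of the 23217 genes. These include genes with fewer than 20 reads in a library. With only the 13752 genes tested, 21 of the 160 (15 higher and 6 lower) and 11.1% of all genes had an unadjusted p under 0.05 by edgeR. LINC02432 came nearest, with a log2 fold change of 1.23 (SE 0.25) and an adjusted p of 0.062 by edgeR. LINC02532 (1.05, SE 0.24), LINC01224 (1.74, SE 0.41) and LINC01619 (1.53, SE 0.37) followed with adjusted p of 0.0937, 0.112 and 0.121 by edgeR. LINC00662 was the first of the lower genes (-1.13, SE 0.31, adjusted p 0.173 by edgeR). Each SE given with edgeR was calculated back from the log2 fold change and the F statistic, as the test itself gives none. DESeq2 called 2 LINC genes, both higher (0.51% of all genes), limma-voom 0 (0.396%) and edgeR without a filter on low counts 7, of which 5 were higher (1.36%). The shares for DESeq2 and for edgeR without the filter are over 38660 genes, genes with few reads among them.

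The lines differed far more than the glucose concentrations. A difference of at least 2-fold between Huh7 and PLC cells at both glucose concentrations was found for 56 LINC genes (35.0%), 27 higher in Huh7 (16.9%) and 29 higher in PLC cells (18.1%). Over the 13752 genes these shares were 21.6%, 9.78% and 11.9%, and over the other lncRNAs 19.0%, 8.47% and 10.5%. At least 8-fold differences at both concentrations were found for 7 LINC genes (4.38%, against 2.28%). The direction was the same at both glucose concentrations for 133 genes, 65 higher in Huh7 and 68 higher in PLC cells, and it turned for 27. With edgeR, 76 of the 160 (47.5%) differed between the lines at an adjusted p of 0.05, 38 in each direction, against 42.9% of all 23217 genes tested. Here the 2 glucose concentrations of a line stand in for replicates. As in the glucose test, the p-values rest on 13.0 degrees of freedom, of which 1 comes from the libraries. The rest come from the spread shared across genes. With only the 13752 genes tested, 51.2% of the LINC genes and 41.3% of all genes differed at that adjusted p by edgeR.

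LINC00472, reported elsewhere as a tumour suppressor, had the widest gap. It had 28 and 26 reads in Huh7 and 1343 and 1491 in PLC cells in low and high glucose, and the Huh7-to-PLC ratio was 0.0295 (0.0195 to 0.0429) and 0.0093 (0.0061 to 0.0137). Its log2 difference in edgeR was -5.93 (SE 0.41, adjusted p 1.14e-07 by edgeR). The nearest coding gene, OGFRL1 at 34368 bases, was also higher in PLC cells, with 408 and 603 reads against 4771 and 1770. LINC02864 had 81 and 120 reads in Huh7 and 2616 and 1107 in PLC cells, with Huh7-to-PLC ratios of 0.0439 and 0.0578. LINC02532 had ratios of 0.0778 and 0.0550, and LINC01588, with 55, 52, 986 and 772 reads, 0.0790 and 0.0359. LINC01234, with 28, 25, 378 and 198 reads, had ratios of 0.105 and 0.0674. These 5 genes were chosen for their line difference at both glucose concentrations, and in each of them every PLC library was above every Huh7 library.

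On the Huh7 side LINC02432 led, with Huh7-to-PLC ratios of 9.65 (8.06 to 11.6) in low and 10.1 (8.65 to 11.8) in high glucose and a log2 difference of 3.30 (SE 0.27, adjusted p 5.26e-07 by edgeR). LINC01415 had 203 and 382 reads in Huh7 and 51 and 30 in PLC cells, with ratios of 5.64 and 6.79. It lies 111940 bases from TCF4, which had 2693 and 3485 reads in Huh7 and 11 and 18 in PLC cells. LINC02593, with 186, 276, 48 and 26 reads, had ratios of 5.49 and 5.66, LINC00654, with 224, 265, 58 and 20 reads, 5.47 and 7.07, and LINC00923, with 308, 262, 73 and 26 reads, 5.98 and 5.38. These 5 genes were chosen in the same way, and in each of them every Huh7 library was above every PLC library. LINC genes nearly absent from 1 line lie outside the rule: 49 had at least 20 reads in both Huh7 libraries and at most 3 in each PLC library, and 31 had the reverse.

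**Figure D4:**
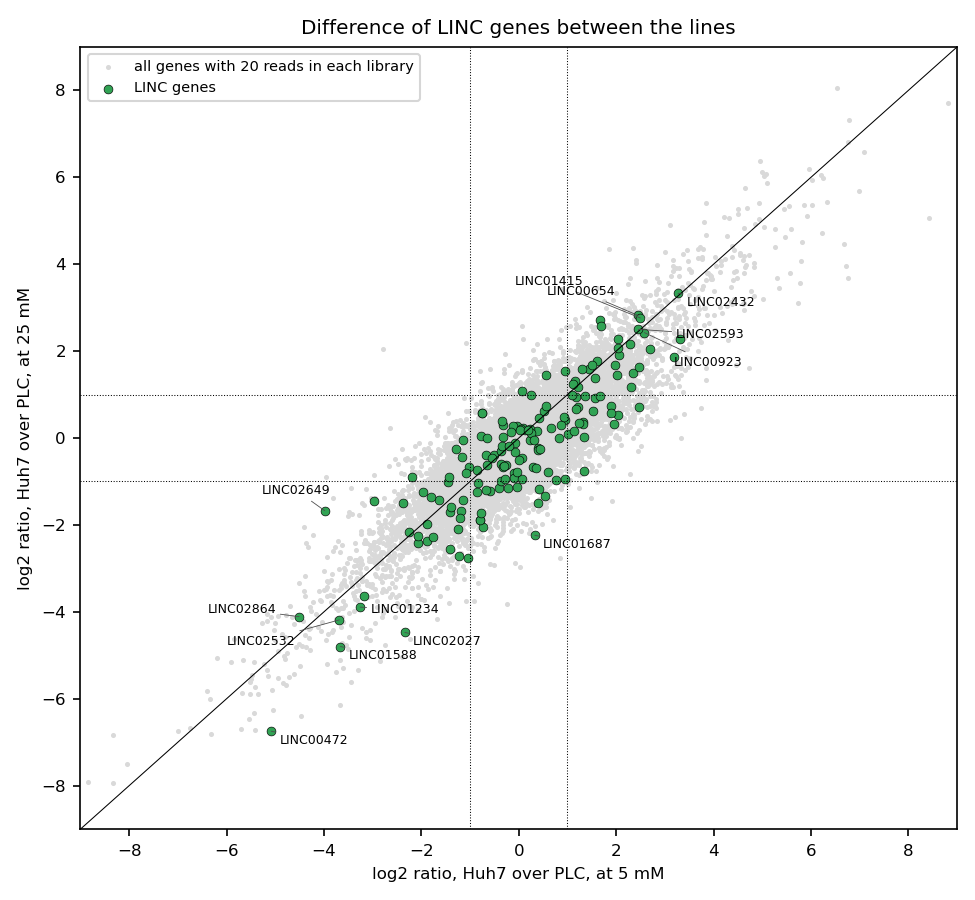
Log2 ratio of Huh7 to PLC cells in low (x) and high (y) glucose, with 1 green point per LINC gene over all genes with at least 20 reads in each library in grey. Dotted lines mark 2-fold and the diagonal marks an equal difference at both concentrations; LINC00472 lies farthest at the lower left and LINC02432 at the upper right, and LINC01687, LINC02027 and LINC02649 lie off the diagonal.

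LINC genes known from liver cancer were described as a list. Of 22 such genes, 19 were in the table and 11 among the 160. Of these, 3 were higher and 2 lower in high glucose in Huh7 cells, and 5 were higher and 1 lower in PLC cells, where 6% and 6.17% of all 13752 genes were higher and lower in Huh7 and 20.2% and 10.2% in PLC cells. With 11 genes such counts are small. They had median log2 ratios of 0.045 and 0.33 beside the -0.0014 and 0.25 of all 160. LINC01224, LINC01419, LINC00339, LINC00472 and LINC00662 are described above. LINC00467, from which a small mitochondrial protein is made, had 191, 378, 42 and 49 reads and ratios of 1.41 (1.18 to 1.68) and 2.2 (1.43 to 3.41), higher in high glucose in both lines though past 1.5-fold only in PLC cells. Of a list of 7 LINC genes with small proteins it was the only 1 in the table under its LINC name, and it was among the 160. LINC00511 had 293, 270, 314 and 168 reads and ratios of 0.655 (0.553 to 0.775) and 1.01 (0.832 to 1.22). LINC00205 starts 152 bases from POFUT2 and had ratios of 0.773 (0.696 to 0.858) and 1.26 (1.14 to 1.39), on opposite sides of 1 but within 1.5-fold. LINC00963, LINC01134 and LINC01138 were within 1.5-fold in both lines, with Huh7 ratios of 1.03, 1.21 and 0.979 and PLC ratios of 1.22, 1.08 and 0.947. Of 6 LINC genes that the study itself picked, 4 were among the 160: LINC01224, LINC01036 and LINC01419, higher in both lines, and LINC01943, lower in both. The paper took its candidates from these libraries together with genes higher in TCGA liver tumours. As they were picked on these samples, their directions here are not independent evidence. By RT-qPCR the paper also reported LINC01419 as higher in high glucose in Huh7 and PLC cells.

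Position was compared with the protein-coding genes alongside. Of the 18 genes that share exon bases with a coding gene, 3 were past 1.5-fold in Huh7 and 9 in PLC cells (16.7% and 50%), and of the 130 without overlap 32 and 57 (24.6% and 43.8%), beside 12.2% and 30.4% of all 13752 genes. Whether reads were counted by strand is not given, so in pairs on opposite strands, too, reads of the shared bases cannot be told apart. Among the 18, the pair with the most LINC reads was LINC01184 and CCDC192, which share 39 bases on opposite strands. LINC01184 had 1077, 1339, 965 and 608 reads and ratios of 0.883 and 1.19, and CCDC192 had 49, 80, 21 and 9 reads. LINC00649 had 139, 264, 827 and 746 reads and ratios of 1.35 (1.09 to 1.67) and 1.70 (1.54 to 1.88), while ATP5PO, a subunit of ATP synthase on the opposite strand, had ratios of 0.864 and 1.01. LINC00294 had ratios of 0.930 and 1.06, and CSTF3, a cleavage factor gene on the opposite strand, 1.04 and 1.93. LINC00863 and NUTM2D share 215 bases on the same strand and had ratios of 1.29 and 1.48, and 1.87 and 1.01. As 81.1% of the windows of LINC00863 are repeated, its reads are uncertain. LINC00894 had ratios of 0.766 and 1.28, and EOLA2 on the opposite strand 0.969 and 0.768. Over the 14 pairs whose coding gene had at least 20 reads in each library, the ratios of the pair were on the same side of 1 in 9 pairs in Huh7 and in 12 in PLC cells, with a Spearman rho of 0.064 and 0.21 as a description. In PLC cells 65% of the LINC genes and 55.5% of the coding genes were above 1.

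In 15 pairs, some of which also share exon bases, a LINC gene starts head to head with a coding gene within 1000 bases. The ratios were on the same side of 1 in 8 of 15 pairs in Huh7 and 10 of 15 in PLC cells. ETAA1, an activator of the ATR kinase, had ratios of 1.22 (1.10 to 1.36) and 2.74 (2.48 to 3.03), and LINC01829, 658 bases away, had 53, 44, 59 and 38 reads and log2 ratios of -0.76 and 0.28. LINC01088 had 62, 124, 195 and 68 reads and log2 ratios of 0.51 and -0.60, whereas PAQR3, which starts 47 bases away, had ratios of 0.714 and 0.832. Between LINC genes that lie within 500000 bases of each other, 8 of 17 pairs were on the same side in Huh7 and 8 of 17 in PLC cells. The GC content of the exons (median 44%, against 46.7% for all genes) and the ratios were nearly unrelated over the 160 genes, with a Spearman rho of 0.037 in Huh7 and -0.100 in PLC cells, given as a description.

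**Figure D5:**
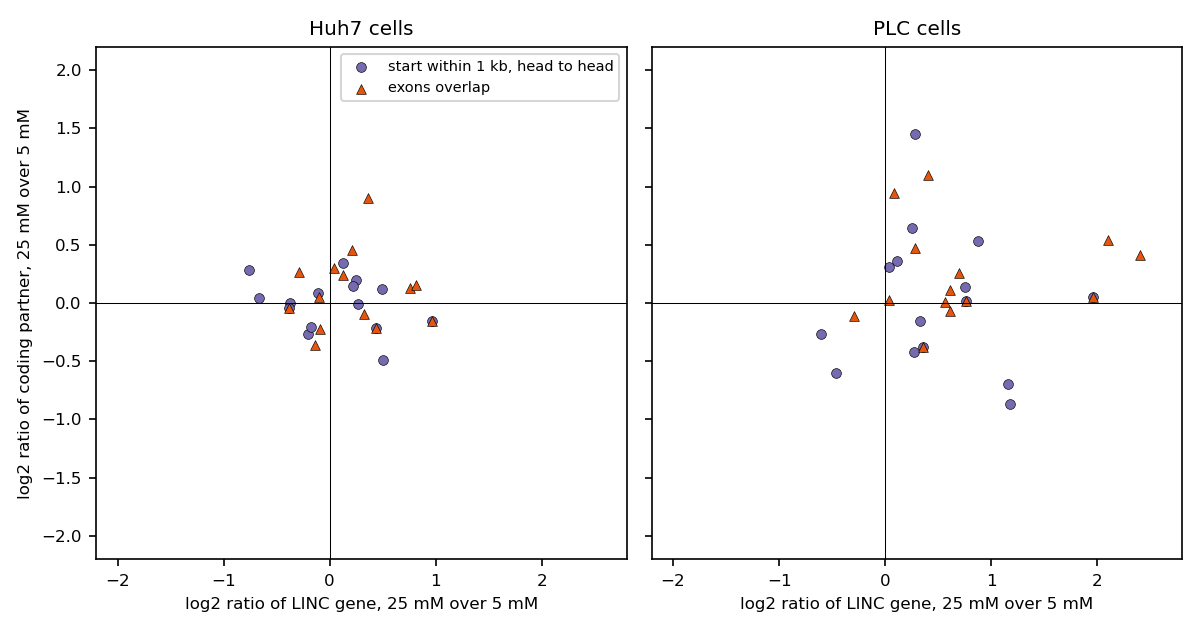
Log2 ratio of high to low glucose of a LINC gene (x) and of its coding partner (y) in Huh7 cells (left) and PLC cells (right); circles are the 15 head-to-head pairs and triangles the 14 pairs with overlapping exons. The pairs lie in all 4 quadrants in Huh7 cells, and in PLC cells most lie to the right of 0.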

How the data were processed

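The authors extracted RNA with TRIzol, removed rRNA with RiboMinus and made libraries with the NEBNext Ultra Directional kit. The submitters' processing notes name HISAT2, featureCounts and hg38. Tool versions, the annotation used for counting and its strand setting are not given in the sources used here. The authors deposited whole-number counts of reads per gene without normalization. Of 59657 lines, 5 of a broken entry (ANK2) were left out.

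FPKM was calculated from the count, the deposited gene length and the column total. Genes were matched to GENCODE 44 by symbol (38126) or by position (21164), and 362 were not matched. Ratios carry no added constant, and their exact Clopper-Pearson 95% intervals cover counting error only. Reads are not independent molecules. A shared change and a line difference were tested with edgeR 4.0.16 (filterByExpr, TMM, quasi-likelihood, terms for line and glucose, Benjamini-Hochberg) in R 4.3.3, and with DESeq2 1.42.0 and limma-voom 3.58.1 as alternatives. The code was tested on simulated data.

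The genes, lists and rules were chosen with earlier results of these data known. Named were the genes past 1.5-fold in both lines (up to 10 a direction, 6 opposite), the 6 with the highest mean FPKM, the 5 a direction with the largest line difference, list members (liver cancer, genes picked by the study, small proteins), genes at the limit of 20 reads, and the 6 exon-overlapping genes with the most reads. Neighbouring genes and genes outside this rule were chosen after their values were seen.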

Additional observations from a re-analysis of the deposited data

Results flagged for a closer look

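LINC02027 and LINC01191 had glucose ratios in opposite directions in the lines with both counting intervals away from 1. LINC02027 had a ratio of high to low glucose of 0.624 in Huh7 and 2.74 in PLC cells, and LINC01191 had 0.635 and 1.58. With TMM scaling and DESeq2 size factors the PLC ratio of LINC01191 was 1.45 and 1.44, no longer past 1.5-fold. That of LINC02027 was 2.52 and 2.50. Each condition is 1 library, so whether the lines differ was not tested. These are 2 of the 6 LINC genes past 1.5-fold in opposite directions.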

How the results depend on the processing

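The 160 genes gave 38 past 1.5-fold in Huh7, 71 in PLC, 13 in the same and 6 in opposite directions, and 56 past 2-fold between lines. With 1 FPKM added these were 8, 27, 2, 0 and 27 (PLC median log2 ratio 0.133), and with 0.1 FPKM added the opposite ones were 2. With at least 50 reads in each library (92 genes) they were 16, 33, 6, 1 and 27, and with FPKM over 0.5 in all libraries (107 genes) 20, 39, 8, 2 and 31. With a mean of at least 20 reads (358 genes, 0.1 FPKM added) they were 76, 145, 22 and, between lines, 211, with a PLC median of 0.082. A 2-fold limit left 5, 33, 2 and 0, and a 4-fold limit between lines 20. Both intervals excluded 1 for 2 of the opposite genes. The PLC median was 0.129 with TMM and 0.117 with DESeq2 scaling. Without genes of more than 20% repeated windows (chosen after the data were seen) 33, 62, 11, 6 and 49 of 126 were past these limits. Shares moved as well as counts: with at least 50 reads 17.4% (Huh7), 35.9% (PLC) and 1.09% (opposite) were past 1.5-fold, from 23.8%, 44.4% and 3.75%, and with a mean of at least 20 reads, where 2 choices changed together, 58.9% differed between lines, from 35.0%. The cause was not tested. Except for the rule on intervals, shares of all genes were not calculated at these settings. Whether the LINC genes still stood above all genes there cannot be read from these counts.
In edgeR, 7 genes shared a glucose change without the filter on low counts (5 higher and 2 lower, 4.38%, against 1.36% of 38660 genes). With DESeq2 there were 2 (1.25%, against 0.51% of 38660 genes). The 38660 genes include genes with few reads, unlike the LINC genes. There were 0 with RLE size factors, limma-voom or at least 20 reads in each library. The line difference was called for 49 with DESeq2 against 76, and the cause was not tested. The replicate block is here the other factor, line or glucose: without it 0 genes shared a glucose change and 64 differed between the lines, against 0 and 76. Leaving out a library was not possible, as each condition has 1 and no residual degrees of freedom would remain.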
